A study of Mus musculus with 19 samples.

Results

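The 10 genes described here belong to insulin signalling and to the FoxO programme of mouse liver: Igfbp1, Txnip, Klhl24, Sesn1, Klf15, Insr, Irs1, Irs2, Foxo1 and Foxo3. They were taken by symbol from the table of expression values, where each of the 10 names occurred once among 52110 named entries, and all 10 passed the expression filter that kept 10577 entries. The samples were livers of wild-type mice in 4 groups: CDAHFD_RIC (n = 4), CDAHFD_sham (n = 5), NC_RIC (n = 5) and NC_sham (n = 5). CDAHFD, a diet rich in fat that lacks choline and supplies defined amino acids, is used to produce steatohepatitis in mice, and NC is normal chow. RIC, remote limb ischemic conditioning, interrupts and restores the blood flow of a limb, and sham mice had a control procedure. The labels speak of replicates and do not say whether these were different mice, so the p-values rest on a spread that may be technical. The sources used here gave no age, sex, feeding state or time of harvest.

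Insulin binds its receptor (Insr), which phosphorylates the adaptors Irs1 and Irs2; these recruit PI3 kinase and lead to activation of the kinase AKT. AKT phosphorylates the transcription factors Foxo1 and Foxo3, which then leave the nucleus, so that genes they activate fall after a meal and rise in fasting or in insulin resistance. In hepatocytes Igfbp1, Irs2 and genes of glucose output are among the best known FoxO targets, and Irs2 and Insr are themselves raised by FoxO, which gives the pathway a feedback loop. Txnip also answers to glucose, and both Txnip and Klf15 to glucocorticoids; Klhl24 and Sesn1 are FoxO targets described outside the liver as well.

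Levels are FPKM, reads scaled to gene length and to library size, so genes can be compared per length, and errors are the SD over samples. Differences of log2(FPKM + 1) come from limma over 10577 genes, with Benjamini-Hochberg adjustment over all of them, and a gene was called at an adjusted p under 0.05. The depth, estimated from the most common FPKM times length among single-exon genes, was about 16000000 to 26400000 reads per sample. At the mean depth a single read on 2 kb amounts to 0.0254 FPKM. Some libraries stood apart for these genes. CDAHFD_sham 2 and 5 had the lowest Igfbp1 and Irs2 of their group, CDAHFD_sham 1 had the lowest Insr and Sesn1, and NC_RIC 4 had the highest Igfbp1, Irs2, Klf15 and Txnip of its group. The 8 hepatocyte markers were expressed throughout, with summed levels of 33672 to 45822 FPKM in CDAHFD_RIC, 32824 to 39076 in CDAHFD_sham, 57170 to 67629 in NC_RIC and 41589 to 52424 in NC_sham. Of those 8, 6 were lower in CDAHFD_sham than in NC_sham, while the 6 macrophage markers were all higher and summed to 633 to 873 FPKM against 50.3 to 65.9 FPKM. The 7 stellate cell and fibroblast markers summed to 18.5 to 58.4 FPKM in CDAHFD_RIC and 37.3 to 119.6 FPKM in CDAHFD_sham, and 4 of the 6 tested were lower in CDAHFD_RIC, of which Col1a1 and Col1a2 were not called without CDAHFD_sham 3 or 4 or CDAHFD_RIC 1, 2 or 3, nor Col1a1 without CDAHFD_sham 1. Insulin and glucagon transcripts (Ins1, Ins2, Gcg) were listed at 0 in every sample. In whole liver, fewer cells of a type and less RNA per cell cannot be told apart, and the part of these shifts in the results below was not tested.

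The stretch before the start site is shown for 3 genes. Igfbp1 and Txnip were called between CDAHFD_RIC and CDAHFD_sham, and Irs2 varied with Igfbp1 within groups. Klhl24, also called there, and Insr had no RefSeq promoter window. Each sequence is the 250 bases before the RefSeq start in GRCm38.p6, written 5′ to 3′ on the strand of the gene. Capitals mark the FoxO binding element GTAAACA, the insulin response element core CAAAACA or the E-box CACGTG, each searched on both strands, so that TGTTTTG is CAAAACA on the other strand.
Igfbp1 (chr11:7197537-7197786, plus strand): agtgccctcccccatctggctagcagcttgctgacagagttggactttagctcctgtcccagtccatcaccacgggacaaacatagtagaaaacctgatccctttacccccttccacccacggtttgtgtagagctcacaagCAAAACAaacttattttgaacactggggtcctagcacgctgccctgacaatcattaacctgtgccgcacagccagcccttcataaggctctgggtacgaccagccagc
Txnip (chr3:96557707-96557956, plus strand): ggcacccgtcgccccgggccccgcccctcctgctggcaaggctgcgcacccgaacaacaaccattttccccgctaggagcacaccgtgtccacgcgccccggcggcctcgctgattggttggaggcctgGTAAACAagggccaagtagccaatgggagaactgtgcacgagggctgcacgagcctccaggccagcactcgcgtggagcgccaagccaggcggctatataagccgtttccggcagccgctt
Irs2 (chr8:11008930-11009179, minus strand): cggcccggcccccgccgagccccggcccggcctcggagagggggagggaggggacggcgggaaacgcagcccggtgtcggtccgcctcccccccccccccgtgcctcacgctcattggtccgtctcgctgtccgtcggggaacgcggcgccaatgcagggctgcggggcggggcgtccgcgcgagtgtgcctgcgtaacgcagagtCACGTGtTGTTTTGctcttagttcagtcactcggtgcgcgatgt
The Igfbp1 sequence holds CAAAACA once, 108 bases before the start, and the Txnip sequence holds GTAAACA once, 121 bases before it. In Irs2, CACGTG lies 44 and CAAAACA 37 bases before the start, on the opposite strand and 1 base apart from the E-box. This RefSeq start of Irs2 lies upstream of the start in the GENCODE annotation, at 11008458 on the minus strand. Among 32851 RefSeq promoter windows of 300 bases (250 before and 50 after the start), 3.65% held GTAAACA, 6.28% CAAAACA and 7.15% CACGTG, and 0.00913% held the glucocorticoid response element, which was absent from the windows of the 8 members that had one. Of these 8, Irs1 also held CAAAACA and CACGTG, overlapping at 111 and 115 bases before its start, and CAAAACA again at 32 bases, Klf15 held CACGTG at 3 places, and Sesn1 held GTAAACA after its start. Foxo1 and Foxo3 held none of these motifs. A match of letters is a description of the window only.

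Igfbp1 encodes a secreted protein that binds insulin-like growth factors and is made mainly by hepatocytes (chromosome 11, 7197782 to 7202546, plus strand; positions here and below are mm10, from GENCODE). Its level was 129.6, 221.2, 119.9 and 312.8 FPKM in CDAHFD_RIC, against 47.5, 13.8, 44.5, 69.4 and 9.92 FPKM in CDAHFD_sham. Every CDAHFD_RIC sample lay above every CDAHFD_sham sample (the groups do not overlap for 18.4% of all genes tested), and CDAHFD_sham 2 and 5 were well under the other CDAHFD_sham samples. Chow samples had 73.4, 47.6, 74.5, 246.6 and 87.5 FPKM in NC_RIC and 79.4, 124, 152.8, 85.9 and 168.7 FPKM in NC_sham. In order of the means, CDAHFD_RIC (196 ± 90.3 FPKM) stood first, then NC_sham (122 ± 39.5), NC_RIC (106 ± 79.9) and CDAHFD_sham (37.0 ± 24.9), and neighbours in this order overlapped. The difference of CDAHFD_RIC from CDAHFD_sham was 2.59 (95% interval 1.52 to 3.66, adjusted p = 0.00167, 5.29-fold between the means), and without CDAHFD_sham 2 and 5 it was 1.76 (adjusted p = 0.00738). In sham mice the diet difference was -1.97 (95% interval -2.97 to -0.96, adjusted p = 0.00118), or -1.13 (adjusted p = 0.0243) without those 2 libraries. Igfbp1 did not pass between NC_RIC and NC_sham (-0.39, 95% interval -1.39 to 0.62, adjusted p = 0.752). It did not pass between CDAHFD_RIC and NC_RIC (1.01, adjusted p = 0.0839). That last difference passed without NC_RIC 4 (1.38, adjusted p = 0.0183), at a common sum of FPKM (1.22), with array weights (1.32) and without CDAHFD_sham 2 and 5 (1.01, adjusted p = 0.0278).

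**Figure D1:**
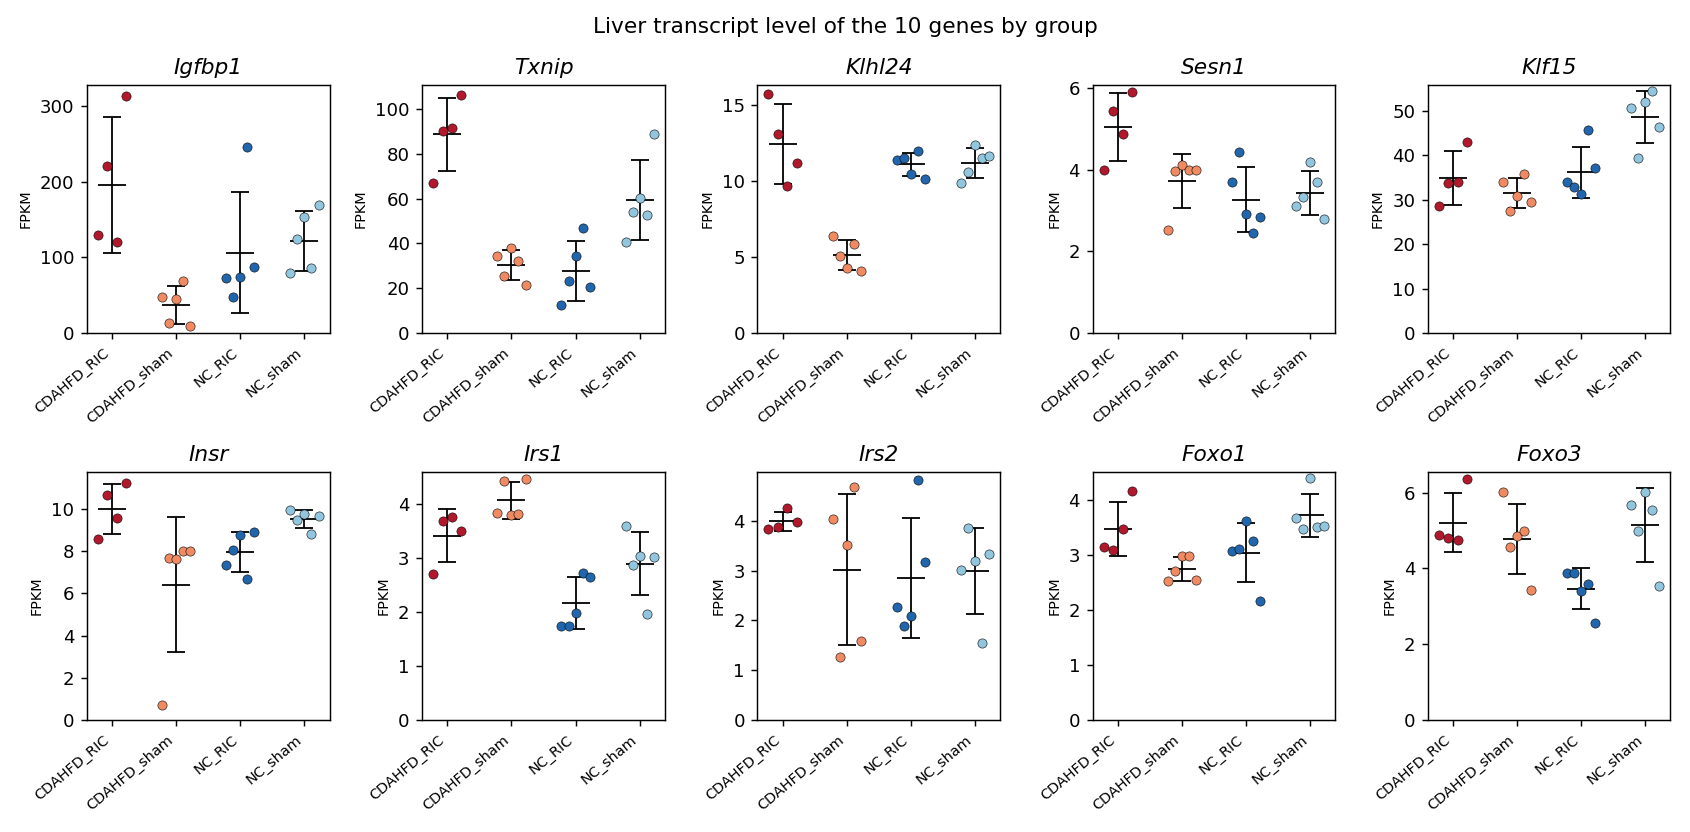
Liver levels of the 10 genes in FPKM on linear axes, 1 point per sample, with the group mean and SD as bars; groups run from CDAHFD_RIC through CDAHFD_sham and NC_RIC to NC_sham. Igfbp1, Txnip and Klhl24 show the 4 CDAHFD_RIC samples above all 5 CDAHFD_sham samples, as do Insr, where CDAHFD_sham 1 is alone at 0.699 FPKM, and Foxo1. For Irs1 they lie below. These 2 groups do not overlap for 18.4% of all genes tested.

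Txnip encodes a protein that binds thioredoxin and limits glucose uptake (chromosome 3, 96557957 to 96561883, plus strand). It measured 67.0, 90.1, 91.7 and 106 FPKM in CDAHFD_RIC, against 34.5, 25.6, 38.0, 32.0 and 21.5 FPKM in CDAHFD_sham. It measured 12.5, 23.3, 34.6, 47.0 and 20.5 FPKM in NC_RIC, against 40.5, 54.1, 60.3, 52.8 and 88.8 FPKM in NC_sham. The 2 pairs went in opposite directions: CDAHFD_RIC samples were all above CDAHFD_sham, while 4 of the 5 NC_RIC samples were below every NC_sham sample and the exception was NC_RIC 4. CDAHFD_RIC and CDAHFD_sham do not overlap for 18.4% of all genes tested. The difference of CDAHFD_RIC from CDAHFD_sham was 1.53 (95% interval 0.93 to 2.12, adjusted p = 0.00113, 2.93-fold). The difference of NC_RIC from NC_sham was -1.16 (95% interval -1.72 to -0.60, adjusted p = 0.0445), and leaving out single libraries gave adjusted p from 0.0173 to 0.108, with the call lost without any 1 of NC_sham 1, 2, 3 and 5, NC_RIC 1, 2, 3 and 5, CDAHFD_sham 3 and 4 and CDAHFD_RIC 2, 3 and 4. Among the 10 genes Txnip was the one called between NC_RIC and NC_sham, where 0.86% of all genes tested were called lower and 0.321% higher; the call was also lost under median-ratio scaling (adjusted p = 0.0709) and quantile normalization, with no filter and with the chow groups alone.

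Txnip shares 606 exonic bases with Gm15441, an antisense gene on the opposite strand, and reads of the 2 cannot be told apart there because the sources used here do not say whether strand was kept. Gm15441, added after its values were seen, measured 5.38, 88.9, 83.5 and 72.2 FPKM in CDAHFD_RIC, against 40.02, 37.8, 34.8, 7.50 and 16.04 FPKM in CDAHFD_sham. It ran from 1.95 to 6.58 FPKM in NC_RIC and from 2.36 to 39.7 FPKM in NC_sham. Its difference of CDAHFD_RIC from CDAHFD_sham was 0.84 (adjusted p = 0.432), and that of NC_RIC from NC_sham was -1.72 (adjusted p = 0.241). CDAHFD_RIC 1 was the lowest of its group in both genes, with 5.38 FPKM of Gm15441 and 67.0 FPKM of Txnip. NC_RIC 1 was likewise the lowest of its group in both (1.95 and 12.5 FPKM), and NC_sham 5 the highest (39.7 and 88.8 FPKM). The genes parted in NC_sham 3, the lowest of its group for Gm15441 (2.36 FPKM), where Txnip was 60.3 FPKM. They also parted in NC_RIC 4, the highest of its group for Txnip (47.0 FPKM), where Gm15441 was 2.06 FPKM. The part of Gm15441 in the Txnip values was not tested.

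Klhl24 encodes a Kelch-repeat adaptor of a cullin ubiquitin ligase (chromosome 16, 20097542 to 20129221, plus strand). It measured 15.7, 13.1, 9.69 and 11.2 FPKM in CDAHFD_RIC, against 6.42, 5.04, 4.27, 5.88 and 4.10 FPKM in CDAHFD_sham. The chow groups were tight and alike, at 10.1 to 12.0 FPKM in NC_RIC and 9.89 to 12.4 FPKM in NC_sham, and CDAHFD_sham lay below each of the other 3 groups without overlap. CDAHFD_RIC exceeded CDAHFD_sham by 1.13 (95% interval 0.86 to 1.39, adjusted p = 1.92e-05, 2.42-fold), and this was the 15th smallest p of the 10577 genes tested. In sham mice CDAHFD lay below chow by a difference of -1.002 (95% interval -1.25 to -0.76, adjusted p = 3.58e-07), with the 5 CDAHFD_sham samples below the 5 NC_sham samples. For 59.3% of all genes tested these 2 groups do not overlap, and for 18.4% CDAHFD_RIC and CDAHFD_sham do not. The difference of NC_RIC from NC_sham was -0.01 (95% interval -0.26 to 0.24), and that of CDAHFD_RIC from NC_RIC 0.13 (95% interval -0.13 to 0.39). The sign of that last value depends on scaling: it was -0.44 (adjusted p = 0.0129) under median-ratio scaling and 0.32 (adjusted p = 0.0203) at a common sum of FPKM.

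Sesn1 encodes sestrin 1, a stress-induced inhibitor of mTORC1 (chromosome 10, 41809935 to 41908424, plus strand). It measured 3.99, 5.45, 4.88 and 5.91 FPKM in CDAHFD_RIC, against 2.53, 3.98, 4.13, 3.99 and 4.005 FPKM in CDAHFD_sham. The lowest CDAHFD_RIC value fell among the CDAHFD_sham values, and the difference of 0.36 (95% interval 0.06 to 0.66) did not pass (adjusted p = 0.0659). It passed under median-ratio scaling (0.43, adjusted p = 0.0292), quantile normalization and a common sum of FPKM, and without CDAHFD_RIC 1 or NC_RIC 2 (adjusted p down to 0.0395). In 17 of the 19 fits without 1 library it did not pass, with differences down to 0.26 and adjusted p up to 0.170. Levels were 2.45 to 4.45 FPKM in NC_RIC and 2.78 to 4.198 FPKM in NC_sham. Klf15, a Krüppel-like factor that promotes amino acid breakdown and gluconeogenesis (chromosome 6, 90462576 to 90475238, plus strand), measured 28.5 to 43.1 FPKM in CDAHFD_RIC, 27.6 to 35.8 FPKM in CDAHFD_sham, 31.4 to 45.6 FPKM in NC_RIC and 39.5 to 54.5 FPKM in NC_sham. NC_sham stood first at 48.7 ± 5.87 FPKM, and the other groups overlapped, at 36.2 ± 5.68 FPKM in NC_RIC, 34.8 ± 6.05 in CDAHFD_RIC and 31.6 ± 3.34 in CDAHFD_sham. CDAHFD_sham was below NC_sham by a difference of -0.61 (adjusted p = 1.52e-04), every sample below every NC_sham sample. These 2 groups do not overlap for 59.3% of all genes tested. The differences of CDAHFD_RIC from CDAHFD_sham (0.13, adjusted p = 0.467) and of NC_RIC from NC_sham (-0.42, adjusted p = 0.0939) did not pass.

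Insr encodes the insulin receptor (chromosome 8, 3122061 to 3279617, minus strand). It measured 8.58, 10.7, 9.59 and 11.3 FPKM in CDAHFD_RIC, against 0.699, 7.69, 7.66, 8.04 and 8.03 FPKM in CDAHFD_sham. CDAHFD_sham 1 was 11.2-fold under the mean of the other 4 (7.85 ± 0.206 FPKM), and the groups did not overlap with or without it. Over all samples, 18.4% of the genes tested show no overlap of these groups. With all samples the difference was 0.79 (SE 0.34, adjusted p = 0.0912), and without CDAHFD_sham 1 it was smaller but passed (0.31, adjusted p = 0.0228). The fit without CDAHFD_sham 2 and 5 also passed, at a larger value (1.11, adjusted p = 0.0356), but it keeps CDAHFD_sham 1 in a smaller group. Chow samples had 7.38, 8.08, 8.79, 6.67 and 8.93 FPKM in NC_RIC and 9.96, 9.47, 9.79, 8.84 and 9.68 FPKM in NC_sham. The diet difference in sham mice was -0.73 (adjusted p = 0.0475), and -0.25 (adjusted p = 0.014) without CDAHFD_sham 1; without any 1 of the 14 libraries of the other groups it was not called (adjusted p up to 0.0744), nor at a pseudocount of 0.1, with no filter, at a common sum of FPKM or with the sham groups alone (adjusted p up to 0.119). Drops of this kind were found in every sample: each had 1 to 9 genes that stood at least 5-fold under the lowest of the other samples of its group where these were all at 3 FPKM or more, with 9 such genes in CDAHFD_sham 1.

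Irs1 and Irs2 encode the adaptors that carry the signal from the receptor (chromosome 1, 82233101 to 82291416, and chromosome 8, 10984681 to 11008458, both on the minus strand). Irs1 measured 2.70, 3.69, 3.76 and 3.51 FPKM in CDAHFD_RIC and 3.84, 4.42, 3.80, 3.82 and 4.46 FPKM in CDAHFD_sham, all CDAHFD_RIC values below all CDAHFD_sham values. These groups do not overlap for 18.4% of all genes tested, and the difference of -0.20 did not pass (95% interval -0.46 to 0.05, adjusted p = 0.225). Levels on chow were 1.73 to 2.72 FPKM in NC_RIC and 1.97 to 3.59 FPKM in NC_sham. Irs1 was the one member of the 10 called higher in CDAHFD_sham than in NC_sham (0.39, adjusted p = 0.00537), where 63.9% of all genes tested were called higher, and its difference was below the median of all genes (0.45), and its sign turned under median-ratio scaling (-0.12, adjusted p = 0.424). Irs2 measured 3.83, 3.89, 4.27 and 3.98 FPKM in CDAHFD_RIC, against 4.04, 1.27, 3.52, 4.69 and 1.59 FPKM in CDAHFD_sham. The CDAHFD_RIC samples lay close together, with an SD of 0.195 FPKM, while CDAHFD_sham had an SD of 1.52 FPKM and split into 3 samples near the CDAHFD_RIC level and CDAHFD_sham 2 and 5 well below it. The difference was 0.40 (95% interval -0.13 to 0.94, adjusted p = 0.248), and -0.02 (adjusted p = 0.953) without those 2 libraries. Irs2 measured 1.89 to 4.82 FPKM in NC_RIC and 1.56 to 3.85 FPKM in NC_sham, and did not pass in any of the 4 comparisons between groups.

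Foxo1 and Foxo3 encode the transcription factors (chromosome 3, 52268336 to 52353221, plus strand, and chromosome 10, 42181841 to 42276755, minus strand). Foxo1 measured 3.15, 3.10, 3.48 and 4.17 FPKM in CDAHFD_RIC, against 2.54, 2.71, 2.98, 2.98 and 2.54 FPKM in CDAHFD_sham. The groups did not overlap, as for 18.4% of all genes tested, and the difference of 0.25 (95% interval 0.04 to 0.46) did not pass (adjusted p = 0.0706). It passed without NC_RIC 5 (adjusted p = 0.0358), at a common sum of FPKM (adjusted p = 0.0235) and under quantile normalization (adjusted p = 0.0362). In 18 of the 19 fits without 1 library it did not pass, with differences down to 0.18 and adjusted p up to 0.211. In sham mice Foxo1 was lower on CDAHFD by a difference of -0.33 (adjusted p = 0.00414), with NC_sham at 3.48 to 4.41 FPKM, and NC_RIC ran from 2.17 to 3.62 FPKM. On chow, NC_RIC differed from NC_sham by -0.23 (95% interval -0.43 to -0.03), which did not pass (adjusted p = 0.231). Foxo3 measured 4.75 to 6.37 FPKM in CDAHFD_RIC, 3.42 to 6.03 FPKM in CDAHFD_sham, 2.55 to 3.88 FPKM in NC_RIC and 3.53 to 6.02 FPKM in NC_sham, so NC_RIC was the lowest group. CDAHFD_RIC exceeded NC_RIC by 0.48 (adjusted p = 0.0056), a value close to the median of all genes there and one of -0.026 (adjusted p = 0.904) under median-ratio scaling. The difference of NC_RIC from NC_sham was -0.46 (adjusted p = 0.0993).

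Across the 10 genes, 3 were called higher and 0 lower in CDAHFD_RIC than in CDAHFD_sham, namely Igfbp1, Txnip and Klhl24. Of all genes tested 8.72% were called higher and 18.6% lower there, with 31.9% of the calls higher as deposited and 58.5% under median-ratio scaling. The 3 calls stood in each of the 19 fits that left out 1 library, and the fitted differences of the 3 genes were 2.69, 1.63 and 1.19 under median-ratio scaling. Between CDAHFD_sham and NC_sham, 6 were lower (Igfbp1, Txnip, Klhl24, Insr, Klf15, Foxo1) and Irs1 was higher, against its sign under median-ratio scaling, in a comparison where 10.3% of all genes were called lower and 63.9% higher. The median difference of all genes in that comparison was 0.45, and median-ratio scaling moved it to -0.05. Relative to that median the 6 genes were further down, and all 6 stayed called lower under median-ratio scaling. Between CDAHFD_RIC and NC_RIC, Txnip (1.76, adjusted p = 2.33e-05), Irs1 (0.48), Sesn1 (0.51) and Foxo3 (0.48) were called higher and 0 lower, against 63.6% and 6.68% of all genes. Of these Txnip alone lay far above the median of all genes (0.42), and it alone stayed called under median-ratio scaling (1.16, adjusted p = 0.00363). Under that scaling Klhl24 (-0.44, adjusted p = 0.0129), Foxo1 (-0.33, adjusted p = 0.0227) and Klf15 were called lower in this comparison. Scaling also moved the share of all calls that were higher. It was 86.1% between CDAHFD_sham and NC_sham and 90.5% between CDAHFD_RIC and NC_RIC as deposited, against 43.9% and 45.0% under median-ratio scaling, and 27.2% between NC_RIC and NC_sham as deposited, against 60.0%. For the interaction described next it was 53.4% as deposited and 81.1% at a common sum of FPKM. The comparisons share groups, CDAHFD_sham above all, so their values for a gene are not independent.

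**Figure D2:**
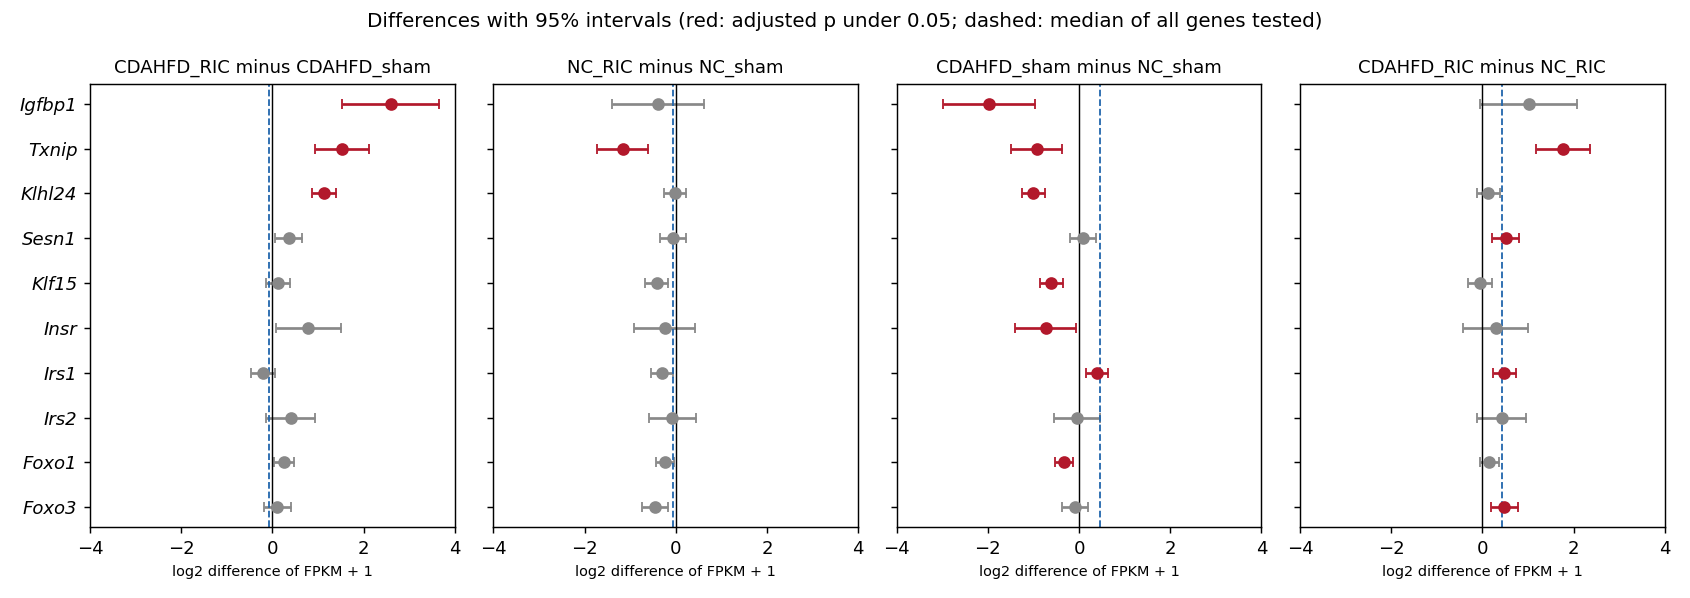
Differences of log2(FPKM + 1) for the 10 genes in the 4 comparisons between groups, with 95% intervals; red marks an adjusted p under 0.05 and the dashed line the median of all genes tested. Igfbp1, Txnip and Klhl24 lie right of 0 for CDAHFD_RIC minus CDAHFD_sham and left of 0 for CDAHFD_sham minus NC_sham, and in the diet comparisons the dashed line stands at 0.45 and 0.42.

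Whether RIC had another effect on CDAHFD than on chow was tested as the difference between the 2 RIC differences. It passed for Txnip (2.69, 95% interval 1.87 to 3.51, adjusted p = 8.92e-04), Klhl24 (1.14, 95% interval 0.78 to 1.49, adjusted p = 9.83e-04), Igfbp1 (2.98, 95% interval 1.51 to 4.45, adjusted p = 0.0171) and Foxo1 (0.48, 95% interval 0.19 to 0.78, adjusted p = 0.0433). Of all genes tested 3.59% passed on the higher and 3.13% on the lower side. Txnip had the 18th and Klhl24 the 28th smallest p among the 10577 genes. Igfbp1 passed in each of the 19 fits without 1 library, and Foxo1 in 6 of them, with adjusted p from 0.033 to 0.0816. The Foxo1 call was lost without any 1 of NC_sham 1 to 5, NC_RIC 1, 2 and 5, CDAHFD_sham 1, 3 and 5 and CDAHFD_RIC 3 and 4, and also under median-ratio scaling (adjusted p = 0.0622), with array weights, with no filter and without CDAHFD_sham 2 and 5. That of Igfbp1 was lost with no filter on low values (adjusted p = 0.0514). Klf15 (0.55, adjusted p = 0.0631) and Foxo3 (0.57, adjusted p = 0.0816) did not pass, nor did Insr (1.03, adjusted p = 0.193), which passed without CDAHFD_sham 1 (0.55, adjusted p = 0.0154). Klf15 passed at a common sum of FPKM, with array weights and with the replicate number as a block (adjusted p down to 0.0148). It also passed without NC_sham 2, NC_RIC 4 or CDAHFD_RIC 1, and without CDAHFD_sham 2 and 5 and NC_RIC 4 together. Foxo3 passed at a common sum, with that block and without NC_sham 5 (adjusted p down to 0.0264).

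Within 3 of the 4 groups, samples with more Igfbp1 also tended to have more Irs2; the 4 CDAHFD_RIC samples, all near 4 FPKM of Irs2, did not order this way. After each gene was set relative to its group mean on the log2 scale, Pearson's r of Irs2 with Igfbp1 over the 19 samples was 0.837 (Spearman's rho 0.781), the third highest of 10576 genes. Without NC_RIC 4 and CDAHFD_sham 5, the samples farthest from the middle, r was 0.770. The 5 genes most like Igfbp1 by this measure were Pnrc1 (0.887), Btg1 (0.861), Irs2, Eif1 and G6pc (0.814), in falling order, against a median of -0.107 and a 99th percentile of 0.630 over all genes. Pnrc1 encodes a nuclear receptor coactivator, Btg1 an antiproliferative protein, Eif1 a translation initiation factor and G6pc glucose-6-phosphatase. Among the other members r was 0.659 for Txnip (rank 73) and 0.618 for Klf15 (rank 136). It was 0.368 for Klhl24, 0.293 for Foxo3, 0.283 for Foxo1, 0.150 for Irs1, -0.233 for Insr and -0.272 for Sesn1. The values share library and scaling, and they describe these 19 samples only.

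**Figure D3:**
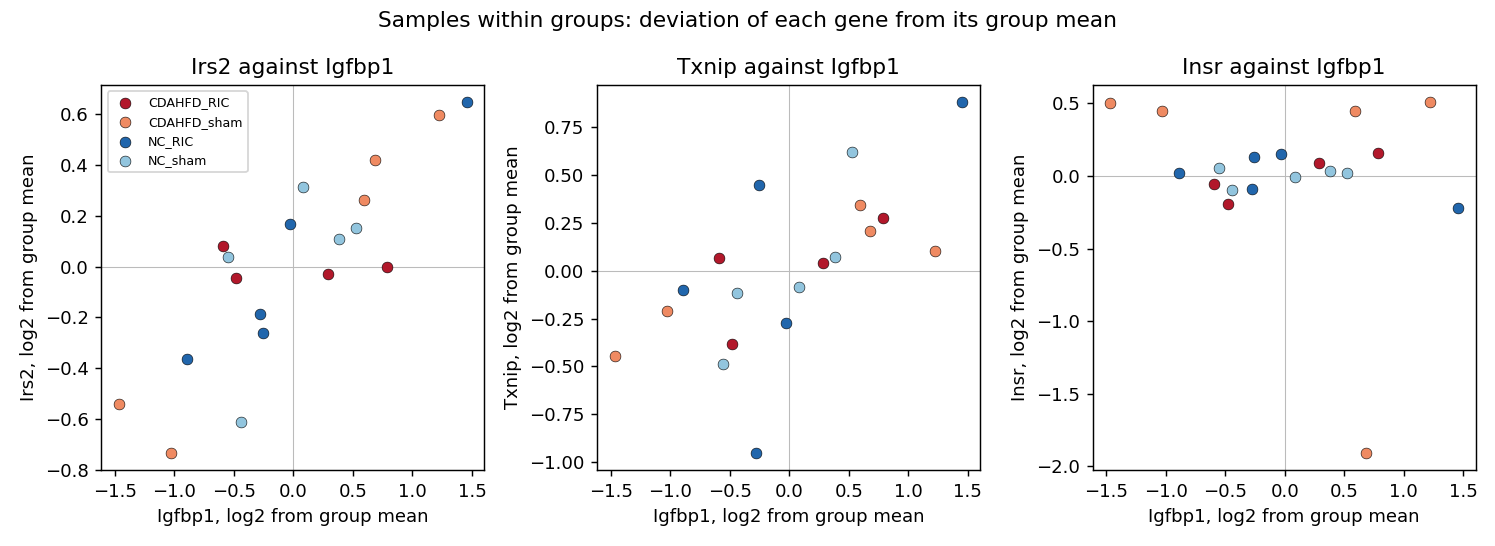
Each point is 1 of the 19 samples, coloured by group; the x axis is Igfbp1 and the y axis Irs2, Txnip or Insr, all as log2(FPKM + 1) minus the mean of the sample's group. Irs2 follows Igfbp1 along the diagonal (r = 0.837), Txnip less closely (0.659), and in the Insr panel CDAHFD_sham 1 lies far below the rest and lowers the mean from which the other CDAHFD_sham samples are counted.

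The wider pathway was described with lists of genes. Of the 36 FoxO target genes 34 were tested, and in CDAHFD_RIC against CDAHFD_sham 8 were higher, 2 lower and 24 not called, with a median difference of 0.28 against -0.08 for all genes. The shares of all genes tested were 8.72% higher and 18.6% lower. This list holds 7 of the 10 members, and apart from them 5 of 27 were higher and 2 lower, with a median of 0.13. The higher ones beside Igfbp1, Txnip and Klhl24 were G6pc (2.13, adjusted p = 0.00273), Pdk4 (2.06, adjusted p = 0.00421), Ppargc1a (1.09, adjusted p = 0.00173), Fbxo32 (0.45) and Bnip3 (0.41), the last pair named after their values were seen. Bnip3 was not called without CDAHFD_RIC 3 or 4. Pdk4 encodes a kinase that blocks pyruvate oxidation, Ppargc1a the coactivator PGC-1α, Fbxo32 the ubiquitin ligase atrogin-1, and Bnip3 a mitophagy receptor. The lower ones were Bcl6, a transcriptional repressor (-1.14, adjusted p = 0.00198, 1.12 ± 0.163 FPKM in CDAHFD_RIC and 3.81 ± 1.35 in CDAHFD_sham), and the apolipoprotein Apoc3 (-0.58, adjusted p = 0.00125). Pck1, the enzyme that commits carbon to gluconeogenesis, was not called (0.47, adjusted p = 0.165), with 463 ± 107 FPKM in CDAHFD_RIC and 351 ± 129 in CDAHFD_sham. Neither were the sestrin paralogues Sesn2 (0.38, adjusted p = 0.0557) and Sesn3 (0.13, adjusted p = 0.387). In NC_RIC against NC_sham, Txnip was the one call of the 34, with a median of -0.19, and 12 were lower and 0 higher at an unadjusted p under 0.05, against 12.9% lower and 3.61% higher of all genes tested. In CDAHFD_sham against NC_sham 10 of the 34 were higher and 13 lower, against 63.9% and 10.3% of all genes, led by Eif4ebp1 (1.16) and Gadd45a (1.46) on the higher side and by Klhl24 and the cyclin Ccng2 (-1.44) on the lower. Under median-ratio scaling the counts were 3 higher and 22 lower. Between CDAHFD_RIC and NC_RIC 14 were higher and 3 lower, where 63.6% and 6.68% of all genes were; the list had 7 higher and 12 lower under median-ratio scaling. The interaction passed for 7 of the 34, all on the higher side, which beside Txnip, Klhl24 and Igfbp1 were Pdk4 (3.45), G6pc (2.22), Ppargc1a (1.36) and Ccng2 (0.93). Apart from the members, 4 of 27 passed on the higher side and 0 on the lower, against 3.59% and 3.13% of all genes.

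Of 27 tested of 30 genes of the insulin signalling core, 4 were higher and 2 lower in CDAHFD_RIC than in CDAHFD_sham. In that comparison 8.72% of all genes tested were called higher and 18.6% lower. Pdpk1, which encodes the kinase PDK1 that activates AKT, had a difference of 0.66 (adjusted p = 0.00255), with 6.45 ± 1.28 FPKM in CDAHFD_RIC and 3.77 ± 1.10 in CDAHFD_sham. The other calls were Inpp5k (0.41), Pik3ca (0.48) and Shc1 (0.18) on the higher side, and Rheb (-0.28) and the PI3 kinase subunit Pik3r1 (-0.46) on the lower. Of these, Shc1 was not called in most fits without 1 library, Pik3ca without CDAHFD_sham 1, 3 or 4 or CDAHFD_RIC 1, 2 or 3, and Pik3r1 without CDAHFD_RIC 4; under median-ratio scaling neither Pik3r1 nor Rheb was called. Akt2, the main AKT of liver, was not called (0.16, adjusted p = 0.209), nor was Foxo4 (0.23, adjusted p = 0.162). Among 14 tested of 16 inhibitors of the pathway, Trib3, a pseudokinase that binds AKT, was higher (0.57, adjusted p = 0.044, with the call lost without any 1 of the CDAHFD_sham libraries and several others) and Trib1 (-0.66) and Pid1 (-0.61) were lower. In NC_RIC against NC_sham 0 core genes and 0 inhibitors were called by limma, with 6 and 3 lower and 0 higher at an unadjusted p under 0.05, where 12.9% of all genes were lower. In CDAHFD_sham against NC_sham 13 core genes were higher and 4 lower, and 7 inhibitors were higher and 0 lower, while 63.9% of all genes tested were called higher there. The inhibitors were led by the insulin receptor phosphatase Ptpn1 (1.177, adjusted p = 3.37e-09; 5.77 ± 0.567 FPKM in CDAHFD_sham and 1.99 ± 0.223 in NC_sham). Median-ratio scaling turned these counts to 4 higher and 11 lower for the core and to 1 higher and 5 lower for the inhibitors. In CDAHFD_RIC against NC_RIC 18 core genes and 10 inhibitors were higher and 0 lower, in a comparison where 63.6% of all genes tested were called higher. The counts were 4 higher and 4 lower core genes and 3 higher and 2 lower inhibitors under median-ratio scaling. The macrophage markers summed to 447 to 977 FPKM in CDAHFD_RIC and 38.6 to 72.3 FPKM in NC_RIC, and their part in these counts was not tested.

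**Figure D4:**
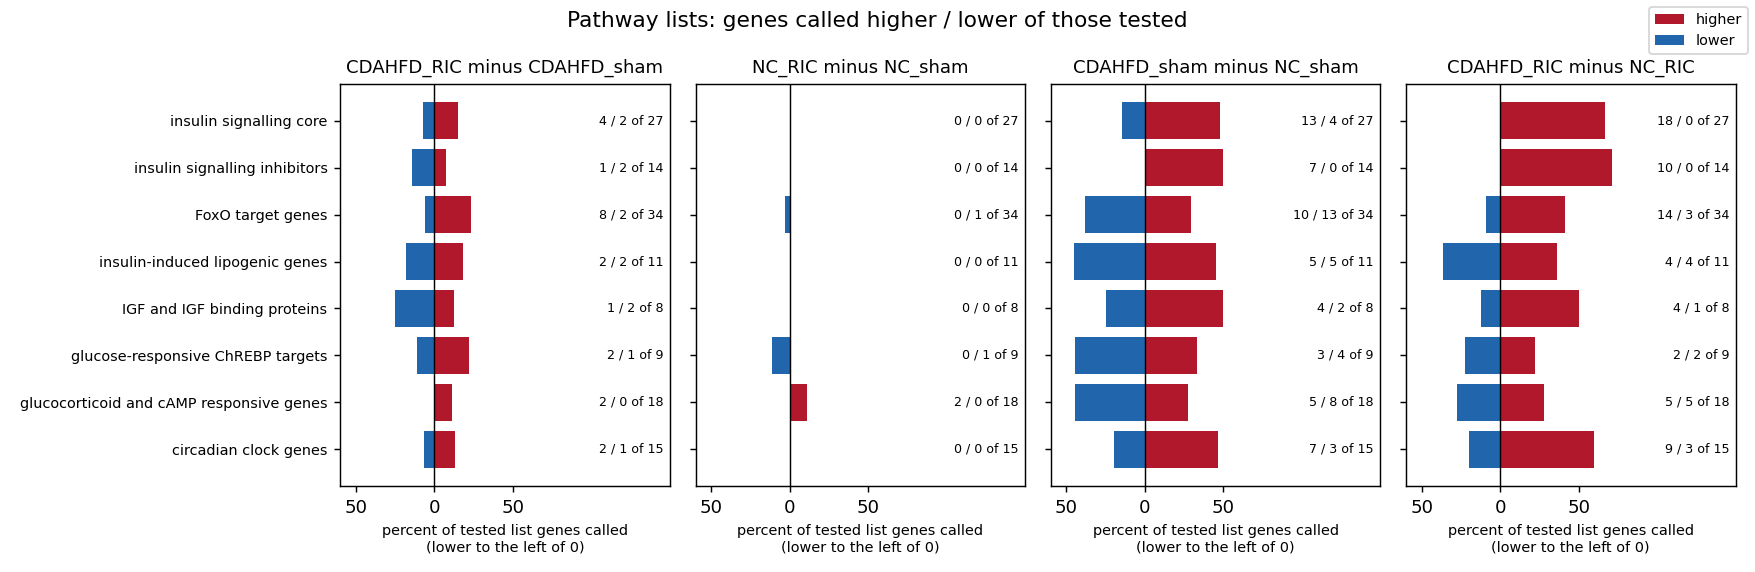
Percent of the tested genes of each of 8 lists called higher (red, to the right of 0) or lower (blue, to the left) in the 4 comparisons, with the counts higher / lower of tested printed in each row. FoxO target genes stand at 8 and 2 of 34 for CDAHFD_RIC minus CDAHFD_sham and at 0 and 1 of 34 for NC_RIC minus NC_sham.

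Between CDAHFD_RIC and CDAHFD_sham, 8.72% of all genes tested were called higher and 18.6% lower. Of 11 tested of 12 lipogenic genes that insulin raises, 2 were higher and 2 lower in CDAHFD_RIC than in CDAHFD_sham. The higher ones were Srebf1, the sterol regulatory factor that insulin induces (0.67, adjusted p = 0.011; 6.54 ± 3.09 FPKM in CDAHFD_RIC and 3.50 ± 0.538 in CDAHFD_sham), and the elongase Elovl6 (0.91, adjusted p = 0.00522; 5.18 ± 1.77 FPKM in CDAHFD_RIC and 2.26 ± 0.724 in CDAHFD_sham). Malic enzyme Me1 was among the lower (-0.42, adjusted p = 0.00758), but was not called at a common sum of FPKM.

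Other axes that reach the members were counted in the same way, beside the 8.72% of all genes called higher and 18.6% called lower in CDAHFD_RIC. Of 9 glucose-responsive ChREBP targets, Txnip and G6pc were higher and Tkfc lower (-0.50, not called under median-ratio scaling or without some of the libraries) in CDAHFD_RIC than in CDAHFD_sham, while Arrdc4, a relative of Txnip that also responds to glucose, was not called (0.07, adjusted p = 0.699; 3.51 ± 0.421 FPKM in CDAHFD_RIC and 3.34 ± 0.798 in CDAHFD_sham). Of 18 glucocorticoid and cAMP responsive genes, Klf9 (0.77, adjusted p = 4.41e-04) and Ppargc1a were higher and 0 lower, and the glucocorticoid-induced Tsc22d3 and Per1 were not called (-0.64, adjusted p = 0.0616, and -0.20, adjusted p = 0.307). Of 15 tested of 18 clock genes, Cry2 (0.39) and Nr1d2 (0.42, lost without CDAHFD_sham 3 or 5 or CDAHFD_RIC 1 or 2) were higher and Per2 was lower (-1.34, adjusted p = 3.19e-05). The time of harvest is not given in the labels, and its part in these values was not tested. Of 8 tested of 12 IGF and IGF binding protein genes, Igfbp1 was higher and Igfbp7 (-0.91) and Igf2r (-0.30) were lower, with Igf2r not called under median-ratio scaling, and neither Igf1 (0.17, adjusted p = 0.404) nor Igfbp2 (0.35, adjusted p = 0.16) was called. In NC_RIC against NC_sham, the calls of these lists beside Txnip were the metallothioneins Mt1 (2.42, adjusted p = 0.0138) and Mt2 (3.04, adjusted p = 0.0141), both higher, and both not called without NC_sham 2 (adjusted p up to 0.0661).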

How the data were processed

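Liver RNA of 19 mouse samples was extracted with Trizol and made into libraries with a VAHTS kit, per the labels. FastQC 0.11.9, Trimmomatic 0.38, HISAT2 2.2.1, HTSeq 0.13.5, R 3.4.1, DESeq2 1.18.1 and the assembly mm10 appear, with no role stated, per the submitters' processing notes. What the authors deposited is a single FPKM table, 1 column per sample; the sources used here name neither the program behind the FPKM nor its gene models nor the strandedness. Of 55335 entries, 3225 had no gene name and were left out.

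Since FPKM are not counts, limma was run on log2(FPKM + 1); this pseudocount of 1 understates changes of low genes. Tests covered the entries whose mean over all samples reached 1 FPKM. The fit was made with limma 3.58.1 in R 4.3.3 (1 mean per group over all samples, eBayes with a trend, two-sided tests, Benjamini-Hochberg adjustment). Comparisons were CDAHFD_RIC with CDAHFD_sham, NC_RIC with NC_sham, CDAHFD with NC under each procedure, and the interaction. The fit was tested on simulated data. Depth was estimated from single-exon genes, where the most common FPKM times length (77 to 131 genes per sample) was taken as 1 read, which gave about 16000000 to 26400000 reads. No pair of samples was a duplicate. Positions came from the GENCODE annotation of mm10 by symbol. RefSeq promoters were matched by symbol for 8 of the 10 genes. Figures were drawn with matplotlib 3.10.9. The labels do not say that replicate numbers pair the samples, so the main fit did not pair them.

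The members and lists were chosen with earlier results of these data known. All 10 members are named. Of each list the rule named up to 4 called genes per direction for CDAHFD_RIC against CDAHFD_sham and up to 2 elsewhere, with a fixed set of regulators; of these, the genes that bear on the members are printed, and 1 gene of the lipogenic list is not reported here. Alternatives were other pseudocounts, filters, scalings, weights and sample sets.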

Additional observations from a re-analysis of the deposited data

Results flagged for a closer look

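The response of 4 genes to RIC differed between the diets by the interaction test. The interaction, the CDAHFD difference minus the chow difference on the log2 scale, was 2.98 for Igfbp1, 2.69 for Txnip, 1.14 for Klhl24 and 0.48 for Foxo1. The Foxo1 value passed in 6 of the 19 fits without 1 library and not under median-ratio scaling, and that of Igfbp1 did not pass with no filter. For Foxo1 neither RIC difference passed by limma. It was 0.25 on CDAHFD (adjusted p = 0.0706) and -0.23 on chow (adjusted p = 0.231).

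In 5 of the 40 sets of 1 gene in 1 group, a single sample stood further from the rest than the 95% limit of Dixon's test allows; chance gives about 1 in 20. Igfbp1 in NC_RIC 4 was 246.6 FPKM, with the next highest at 87.5 FPKM. Insr in CDAHFD_sham 1 was 0.699 FPKM, with the next lowest at 7.66 FPKM, and Sesn1 in the same library was 2.53 FPKM, with the next lowest at 3.98 FPKM. Foxo3 in CDAHFD_RIC 4 was 6.37 FPKM, with the next highest at 4.90 FPKM. Foxo1 in NC_sham 3 was 4.41 FPKM, with the next highest at 3.69 FPKM.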

How the results depend on the processing

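The calls of Igfbp1, Txnip and Klhl24 between CDAHFD_RIC and CDAHFD_sham held in every fit that left out 1 of the 19 libraries and in the other 12 alternatives. The number of members called was 3 there and 5 at a common sum of FPKM and under quantile normalization; 4 between CDAHFD_RIC and NC_RIC, but 8 at a common sum and 1 with a mean of at least 5 FPKM; and 4 for the interaction, but 2 with no filter. Between CDAHFD_RIC and NC_RIC the genes behind the count also changed under median-ratio scaling. Irs1, Sesn1 and Foxo3 were not called there, while Klhl24, Foxo1 and Klf15 were called lower. Scaling turned some signs. Under median-ratio scaling the differences were -0.12 for Irs1 and -0.42 for Sesn1 between CDAHFD_sham and NC_sham, and -0.33 for Foxo1, -0.026 for Foxo3 and -0.44 for Klhl24 between CDAHFD_RIC and NC_RIC. Under quantile normalization they were -0.14 for Irs1 and -0.44 for Sesn1 in the first, and -0.023 for Irs1, -0.36 for Foxo1 and -0.030 for Foxo3 in the second. These scalings set the median of all genes near 0.

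Between NC_RIC and NC_sham the members called were 1 (Txnip) and fell to 0 with no filter, under median-ratio scaling, under quantile normalization, with the 2 groups alone, and without any of 13 libraries (NC_sham 1, 2, 3 or 5, NC_RIC 1, 2, 3 or 5, CDAHFD_sham 3 or 4, CDAHFD_RIC 2, 3 or 4); they were 2 with array weights and 3 with the replicate block. Samples of the same replicate number correlated little after group means were removed (27 pairs, r from -0.174 to 0.176, 6 over 0.1). With so few samples per group, these correlations cannot show whether a small effect is shared by number. With the block 79 genes were called between NC_RIC and NC_sham, against 125. Leaving out 1 library gave 13 to 184 genes and 0 to 1 members there, and 438 to 1042 genes against 711 for the interaction. The same count for NC_RIC against NC_sham was 48 with no filter, 59 under quantile normalization, 46 with the 2 groups alone and 401 with array weights. With no filter 12361 genes were called between CDAHFD_sham and NC_sham, against 7852. With a mean of at least 5 FPKM, which tests fewer genes, 1480, 3562, 3401 and 386 were called in CDAHFD_RIC against CDAHFD_sham, CDAHFD_sham against NC_sham, CDAHFD_RIC against NC_RIC and the interaction. With the 2 groups alone the first was 1868, against 2886. Without CDAHFD_sham 2 and 5 the interaction gave 1266 genes. Without NC_RIC 4 as well, an alternative chosen after seeing the data, it gave 1384, and NC_RIC against NC_sham gave 83.

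Among single genes, the sham diet call of Insr was lost without any 1 of the NC_sham, NC_RIC or CDAHFD_RIC libraries (adjusted p up to 0.0744) and under 4 other alternatives, and the interaction of Foxo1 without 13 libraries and under 5 of 10 other alternatives. Where not named, the cause was not tested. The lowest member value, 0.699 FPKM, lies above the 0.0254 FPKM of 1 read in 2 kb at the mean depth, and the part of depth in the values was not tested.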
